A study of Mus musculus with 4 samples.

Results

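The Notch genes described here are the receptors Notch1, Notch2 and Notch3, the ligands Jag1, Jag2 and Dll1, the transcriptional targets Hes1, Hey1 and Heyl, and the feedback inhibitor Nrarp. They were chosen by gene symbol from the deposited count table, with earlier results of these data known, and are 10 of its 54532 genes. Total RNA was sequenced from the mouse podocyte line MPC5, a conditionally immortalized line that is expanded with interferon-γ and left to differentiate once it is withdrawn. The control group (2 libraries) received saline, and the IL-12 treatment group (2 libraries) received IL-12 at 400 ng/ml, with RNA taken after 6 h. It is not stated whether libraries within a group are from separate cultures, so the p-values measure only the spread between these libraries, which may be technical.

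Notch receptors are single-pass membrane proteins that are activated by ligands of the Jagged and Delta families on a neighboring cell. Ligand binding exposes the receptor to cleavage by an ADAM metalloprotease and then by γ-secretase, and the released intracellular domain enters the nucleus and joins the DNA-binding protein RBPJ and a Mastermind coactivator to switch on HES and HEY genes. In the kidney, Notch signaling takes part in nephron patterning during development, is low in mature podocytes, and has been linked to glomerular injury when it is reactivated.

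The libraries held 18355379 to 20098012 counts, so that a floor of 3 counts corresponded to 0.152 to 0.166 CPM, the count relative to library size after TMM scaling. Chi-square over degrees of freedom was 2.13 within the control pair and 2.41 within the IL-12 pair, above sampling noise in each, and 16.4 to 19.7 across groups. Of 13 podocyte markers, 7 were abundant enough to test, including Synpo, Actn4 and Podxl, whereas the slit diaphragm gene Nphs1 and the genes Lmx1b, Tcf21 and Ptpro had at most 3 counts in every library and Wt1 had 4 to 16. The cells therefore carried only part of the podocyte marker set. The 8 endothelial markers, of a cell type rich in Notch ligands and receptors, summed to 0.583 to 0.686 CPM in the control group and 0.387 to 0.657 CPM in the IL-12 group, with none reaching the minimum for a test and Emcn and Tie1 at 0 counts throughout.

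Among the 10 Notch genes, 8 passed the filter on low counts. With IL-12, the 3 receptors and the ligands Jag2 and Dll1 were lower, and Hes1, a transcriptional repressor that is a classical Notch target, was higher. Jag1 and Hey1 did not pass the test, and Heyl and Nrarp were too low to be tested. Thus 5 Notch genes were called lower, where 14.4% of the 14095 genes tested were, and 1 was called higher, where 16.1% were, at an adjusted p below 0.05 by edgeR's quasi-likelihood test. The 5 and the 1 were drawn from 8 tested genes. These shares depend on abundance. Of the 9496 tested genes of at least 10 CPM, 18.2% were called lower and 21.7% higher. Dll1 and Hey1 lay below that limit. No Notch gene changed over 2-fold, as 1.61% of all genes did. The libraries of the groups did not overlap for 7 of the 8 tested genes, which was also true of 62.9% of all tested genes. The median log2 fold change of the 8 genes was -0.26, beside a median of 0.00 over all genes tested. Leaving out IL-12 replicate 1 lowered the number of all genes called lower from 2030 to 1124, higher from 2267 to 1404, and over 2-fold from 227 to 144, while 4 Notch genes were still called lower and 1 higher. In a bulk sample, fewer cells of a type and less RNA per cell cannot be told apart.

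**Figure D1:**
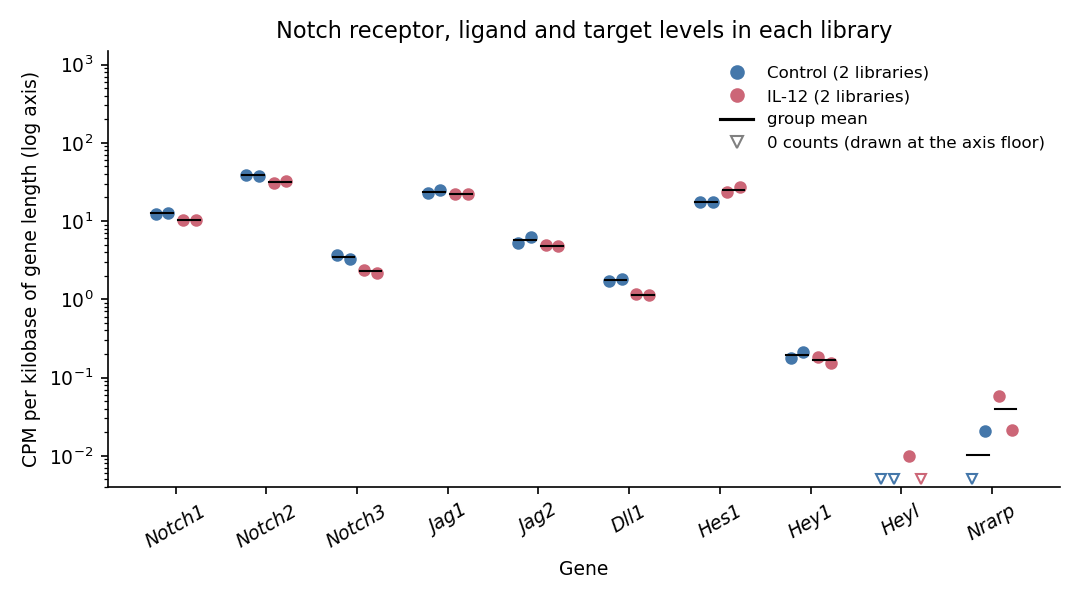
Level of each Notch gene in each library, as CPM per kilobase of gene length on a log axis. Points are libraries, black lines are group means where they lie above the axis floor, and open triangles are libraries with 0 counts. The 3 receptors lie lower and Hes1 lies higher in both IL-12 libraries, and Heyl and Nrarp lie near or at the floor in all 4.

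Per kilobase of gene length, Notch2 had the highest level of the 10 genes, with a mean of 35.0 CPM per kb over the 4 libraries, and 11.1% of tested genes lay above it. Jag1 followed at 22.8 and Hes1 at 21.3 CPM per kb. Their order differed between the groups, since in the control libraries Jag1 was at 22.6 and 24.6 CPM per kb and Hes1 at 17.3 and 17.4, whereas in the IL-12 libraries Jag1 was at 22 and 22.2 and Hes1 at 23.4 and 27.0. Notch1 came next with a mean of 11.4 CPM per kb, then Jag2 with 5.29, Notch3 with 2.89 and Dll1 with 1.46. Apart from Jag1 and Hes1, neighbors in this order did not overlap over the 4 libraries. Hey1 was far lower at 0.182 CPM per kb, with 97.2% of tested genes above it. Nrarp ranged from 0 to 0.0587 CPM per kb and Heyl from 0 to 0.00989 CPM per kb, so that their libraries overlapped and their order is not resolved.

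Notch1 (ENSMUSG00000026923) lies on the minus strand of chromosome 2 at 26457903 to 26516663, Notch2 (ENSMUSG00000027878) on the plus strand of chromosome 3 at 98013527 to 98150361, and Notch3 (ENSMUSG00000038146) on the minus strand of chromosome 17 at 32120820 to 32166880, in the deposited coordinates. For Notch1 and Notch2 these equal the GENCODE M21 annotation of build GRCm38, which ends Notch3 at 32166852. All 3 are protein-coding. The receptors were lower together with IL-12, and the bases just upstream of their RefSeq start sites (GRCm38.p6) are shown, outside annotated exons and 5′ to 3′ on the strand of the gene. Capitals mark matches, on either strand, to motifs that HES or HEY proteins are known to bind, the N-box CACNAG and the class C site CACGCG. The windows are chr2:26503825-26504072 (minus strand) for Notch1, chr3:98013288-98013526 (plus strand) for Notch2 and chr17:32166891-32167140 (minus strand) for Notch3.
Notch1: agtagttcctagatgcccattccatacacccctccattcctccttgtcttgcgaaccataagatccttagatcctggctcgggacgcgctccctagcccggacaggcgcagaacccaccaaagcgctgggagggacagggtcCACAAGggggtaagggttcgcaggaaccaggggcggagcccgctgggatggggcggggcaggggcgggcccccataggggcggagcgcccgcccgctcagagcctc
Notch2: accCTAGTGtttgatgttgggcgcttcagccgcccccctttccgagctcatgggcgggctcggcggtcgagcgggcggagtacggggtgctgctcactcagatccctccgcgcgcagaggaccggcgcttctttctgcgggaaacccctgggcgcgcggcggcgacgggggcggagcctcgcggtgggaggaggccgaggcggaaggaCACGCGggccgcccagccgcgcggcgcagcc
Notch3: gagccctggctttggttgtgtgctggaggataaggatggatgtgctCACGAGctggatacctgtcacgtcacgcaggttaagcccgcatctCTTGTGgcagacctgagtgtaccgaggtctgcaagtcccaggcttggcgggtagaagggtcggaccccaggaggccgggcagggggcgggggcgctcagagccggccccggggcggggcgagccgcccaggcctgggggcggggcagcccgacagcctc
The RefSeq start of Notch1 lies inside the annotated span of the gene, since longer transcripts start further upstream.

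The same search covered the 250 bases before each RefSeq start for all genes, 32851 windows in all, and 8 windows of 7 of the 10 Notch genes. Hes1, Hey1 and Heyl were not among them. These windows were not limited to bases outside exons. The Jag2 window and both Dll1 windows lay wholly within annotated exons, as did 124 bases of the Jag1 window. An N-box was present in 4 of the 8 windows, in Notch1, Notch2, Notch3 and Nrarp, and in 36.7% of all windows. A class C site was present in 3 of the 8, in Notch2, Jag1 and 1 window of Dll1, and in 7.62% of all. The Dll1 site lay in an exon of the noncoding RNA A930024N18Rik. The E-box CACGTG, which HEY proteins bind, was in the Nrarp window only and in 6.02% of all. The core letters of the RBPJ site, TGGGAA, were in 0 of the 8 windows and in 21.6% of all. The 8 windows were 56.0% to 87.2% G or C, and the shares over all windows were not matched for this. None of these motifs contains another, and a match describes these windows and is not evidence of a bound site or of a cause.

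Notch2, the most abundant receptor here, had 7953 and 7758 counts in the controls and 6580 and 6263 in the IL-12 libraries. Scaled for library size, these were 420 and 411 CPM against 333 and 346 CPM. Both IL-12 libraries lay below both control libraries. Notch2 fell by 18.3%, from 415 ± 6.19 to 339 ± 9.60 CPM (SD, n = 2 each), with a log2 fold change of -0.29 (SE 0.03) and an adjusted p of 1.26e-06 by edgeR's quasi-likelihood test after Benjamini-Hochberg adjustment.

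Notch1, the receptor that T cell development depends on, had 3319 and 3431 counts in the controls and 2870 and 2645 in the IL-12 libraries, or 175 and 182 CPM against 145 and 146 CPM. The groups did not overlap. Notch1 fell by 18.4%, with a log2 fold change of -0.29 (SE 0.04, 95% confidence interval -0.38 to -0.21) and an adjusted p of 1.42e-05 in the same edgeR fit. Both intervals of Notch1 and Notch2 covered the other's estimate, the interval of Notch2 being -0.36 to -0.22.

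Notch3, a receptor best known from vascular smooth muscle and pericytes, had 563 and 498 counts in the controls and 379 and 319 in the IL-12 libraries, or 29.7 and 26.4 CPM against 19.2 and 17.6 CPM. Again both IL-12 libraries were the lowest of the 4. Notch3 fell by 34.4%, from 28.1 ± 2.36 to 18.4 ± 1.08 CPM (SD, n = 2 each), with a log2 fold change of -0.61 (SE 0.09, 95% confidence interval -0.80 to -0.42) and an adjusted p of 4.23e-05 from edgeR. The 6 markers of mesangial cells or pericytes, which share Notch3, summed to 69.7 to 70.7 CPM in the control and 71.3 to 82.0 CPM in the IL-12 libraries. In that list Pdgfrb was higher, Gata3 was lower and Rgs5 was at 0 counts, and their part in the fall of Notch3 was not tested.

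**Figure D2:**
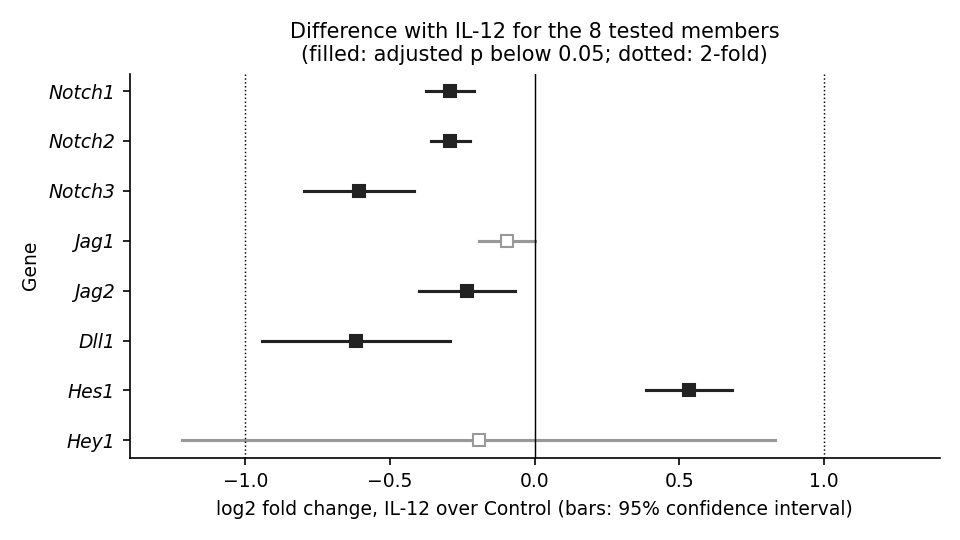
Log2 fold change with IL-12 over control for the 8 tested Notch genes, with 95% confidence intervals as bars. Filled squares passed an adjusted p below 0.05 and dotted lines mark a 2-fold change. The intervals of the 3 receptors, Jag2 and Dll1 lie below 0, that of Hes1 lies above 0, and those of Jag1 and Hey1 include 0.

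Per length, the summed level of the 3 receptors was 54.9 and 54.2 CPM per kb in the controls and 43.4 and 44.6 CPM per kb in the IL-12 libraries. Notch2 made up 70.9% and 70.4% of that sum in the controls and 71.0% and 72.0% in the IL-12 libraries. Notch3 made up 6.72% and 6.05%, against 5.48% and 4.92% with IL-12. The ratio of Notch2 to Notch3, on the scale of CPM per kb, was 10.5 and 11.6 in the controls and 13.0 and 14.6 with IL-12, whereas that of Notch2 to Notch1 was 3.16 and 2.98 against 3.03 and 3.13. Of 7 such ratios compared between the groups, 6 did not overlap. Single genes did not overlap in 62.9% of all tested, and no such share was computed for ratios. The 7 ratios share genes, so they are not separate comparisons. With 2 libraries in each group, an exact permutation test (two-sided) cannot give a p below 0.333, which is what those 6 ratios reached (0.389 after Benjamini-Hochberg adjustment), so that it could not have called any of them. In the edgeR fit, the 95% confidence interval of the log2 fold change of Notch3 (-0.80 to -0.42) did not overlap that of Notch2 (-0.36 to -0.22) or that of Notch1 (-0.38 to -0.21).

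Among the ligands, Dll1, a Delta-like ligand, fell. The gene (ENSMUSG00000014773, chromosome 17, 15367354 to 15376872, minus strand) had 139 and 143 counts in the controls and 98 and 86 in the IL-12 libraries, or 7.34 and 7.58 CPM against 4.95 and 4.75 CPM. The groups did not overlap. Dll1 fell by 34.8%, with a log2 fold change of -0.62 (SE 0.15) and an adjusted p of 0.00472 by edgeR's quasi-likelihood test, although DESeq2's Wald test gave an adjusted p of 0.103. The long noncoding RNA A930024N18Rik on the opposite strand shares 867 exonic bases with Dll1 and had 29 counts against 466 of Dll1 over the 4 libraries.

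Jag2 (ENSMUSG00000002799, chromosome 12, 112907819 to 112929776, minus strand), a Jagged ligand, had 689 and 818 counts in the controls and 679 and 604 in the IL-12 libraries. These were 36.4 and 43.3 CPM against 34.3 and 33.4 CPM, with control replicate 2 standing above the other 3 libraries. Jag2 fell by 15%, with a log2 fold change of -0.23 (SE 0.08) and an adjusted p of 0.0303 from edgeR. Without control replicate 2 the log2 fold change was -0.10 and the adjusted p was 0.46, and without control replicate 1 they were -0.35 and 0.000493. The call was also lost without either IL-12 replicate (adjusted p of 0.182 without replicate 1 and 0.205 without replicate 2) and in the DESeq2 test (0.197).

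Jag1 (ENSMUSG00000027276, chromosome 2, 137081456 to 137116644, minus strand), the ligand whose human counterpart is mutated in Alagille syndrome, was the most abundant ligand. It had 2493 and 2705 counts in the controls and 2536 and 2336 in the IL-12 libraries, or 132 and 143 CPM against 128 and 129 CPM. The IL-12 libraries lay just below the control libraries, and control replicate 2 was again the highest. The log2 fold change was -0.10 (SE 0.05, 95% confidence interval -0.19 to 0.00) with an adjusted p of 0.134 from edgeR, so that Jag1 did not pass. Without control replicate 1 the value was -0.15 with an adjusted p of 0.048, and without control replicate 2 it was -0.03 with 0.771. Scaling by total counts alone gave -0.14 with 0.0312.

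The 3 ligands summed to 29.5 and 32.6 CPM per kb in the controls and to 28.1 CPM per kb in both IL-12 libraries. Jag1 made up 76.4% and 75.4% of this sum in the controls and 78.3% and 78.9% in the IL-12 libraries. Dll1 made up 5.89% and 5.51%, against 4.18% and 4.01% with IL-12. In each group the ligand pool was therefore mostly Jag1, as the receptor pool was mostly Notch2.

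Hes1 (ENSMUSG00000022528, chromosome 16, 30064384 to 30067796, plus strand) encodes a basic helix-loop-helix repressor that also represses its own promoter. It had 669 and 670 counts in the controls and 943 and 994 in the IL-12 libraries. On the CPM scale, these were 35.3 and 35.5 against 47.7 and 54.9. Both IL-12 libraries lay above both control libraries, and their difference from each other was larger than that between the control libraries. Hes1 rose by 44.7%, from 35.4 ± 0.132 to 51.3 ± 5.15 CPM (SD, n = 2 each), with a log2 fold change of 0.53 (SE 0.07, 95% confidence interval 0.38 to 0.68) and an adjusted p of 1.17e-05 by edgeR's quasi-likelihood test after Benjamini-Hochberg adjustment. Of the 8 receptor, ligand and target genes tested, only Hes1 had a positive fold change. Per length, the ratio of Hes1 to Notch2 was 0.445 and 0.457 in the controls and 0.759 and 0.840 in the IL-12 libraries.

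The other target genes were scarce. Hey1 (ENSMUSG00000040289, chromosome 3, 8663359 to 8667256, minus strand), a repressor related to Hes1, had 11 and 13 counts in the controls and 12 and 9 in the IL-12 libraries. The groups overlapped, and the log2 fold change of -0.19 (SE 0.49, 95% confidence interval -1.22 to 0.83, adjusted p of 0.815 from edgeR) left room for a rise or a fall of the size seen for Hes1. Heyl (ENSMUSG00000032744, chromosome 4, 123233556 to 123249875, plus strand), another member of the HEY family, had 0 counts in 3 libraries and 1 count in IL-12 replicate 1. Nrarp (ENSMUSG00000078202, chromosome 2, 25180758 to 25183339, plus strand), whose product destabilizes the Notch intracellular domain complex, had 0 and 1 counts in the controls and 3 and 1 in the IL-12 libraries. Summed over each group, this was 0.0264 CPM (exact 95% Poisson interval 0.000669 to 0.147) against 0.106 CPM (0.0288 to 0.270), and these intervals cover counting error only. A difference in Heyl or Nrarp was not detectable at this depth.

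**Figure D3:**
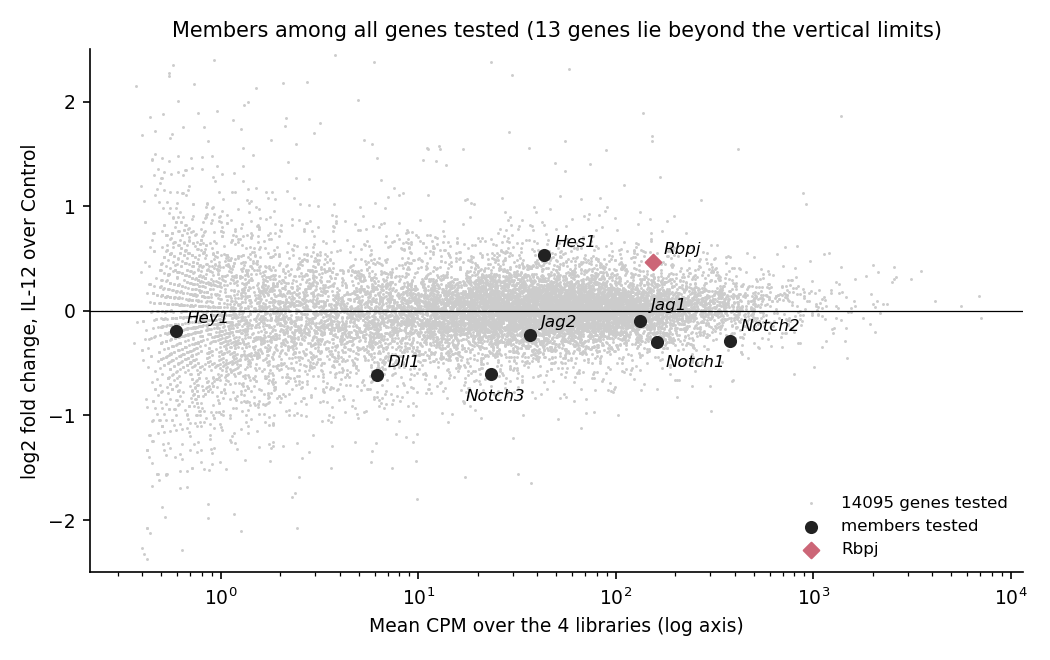
Log2 fold change with IL-12 over control against mean CPM over the 4 libraries (log axis) for the 14095 genes tested (grey), with the 8 tested Notch genes in black and Rbpj as a diamond. Dll1 and Notch3 lie near -0.6, Notch1, Notch2 and Jag2 lie between -0.3 and -0.2, and Hes1 and Rbpj lie near 0.5.

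The rest of the pathway was described from a list of 60 further genes, also chosen with earlier results of these data known. Over all tested genes, 16.1% were called higher and 14.4% lower. These shares are also given beside single roles below and are not matched for abundance. Over tested genes of at least 10 CPM, they were 21.7% and 18.2%. Of the list, 48 genes were tested, most of them above 10 CPM. In the edgeR fit, 5 were higher and 13 lower at an adjusted p below 0.05. The median log2 fold change of the 48 was -0.03, beside 0.00 for all genes tested, and 2 of them, Tle2 and Aph1c, changed over 2-fold. Without IL-12 replicate 1 the number called fell from 18 to 11, and without IL-12 replicate 1 or control replicate 1 only 1 gene was over 2-fold.

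Rbpj, the DNA-binding protein through which all Notch receptors act, was higher with IL-12. It had 2438 and 2463 counts in the controls and 3494 and 3265 in the IL-12 libraries, or 129 and 131 CPM against 177 and 181 CPM. The groups were well apart. Rbpj rose by 37.8%, with a log2 fold change of 0.46 (SE 0.04) and an adjusted p of 5.37e-08 from edgeR. Of the 9 nuclear effectors, all tested, 2 were called higher and 2 lower, where 16.1% and 14.4% of all tested genes were. Besides Rbpj, Kat2a, a histone acetyltransferase, was higher (log2 fold change 0.34, adjusted p 2.47e-05 from edgeR). Its paralog Kat2b (-0.27, 0.00155) and the acetyltransferase Ep300 (-0.14, 0.0221) were lower. The other 5 did not pass, among them the Mastermind coactivators Maml1, Maml2 and Maml3, with log2 fold changes of -0.06, -0.18 and 0.36.

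Corepressors that act with RBPJ or with HES proteins were called lower in 4 of 11 cases, where 14.4% of all tested genes were, and called higher in 0, where 16.1% were. The other 7 did not pass, and the median log2 fold change of the 11 was 0.01. The largest of these differences was in Tle2, a Groucho-type corepressor that HES proteins recruit, with 62 and 68 counts in the controls and 31 and 23 with IL-12 (log2 fold change -1.27, SE 0.26, adjusted p 0.000981 from edgeR). Its relative Tle3 (-0.27, 0.000167), Ctbp2 (-0.28, 8.06e-05) and Ncor1 (-0.14, 0.00619) were lower by less. Ctbp2 shares 314 exonic bases with Fgfr2 on the same strand, which had 19061 counts against 8135 of Ctbp2. Fgfr2 was itself called lower with IL-12 (log2 fold change -0.57 in the edgeR fit). The value of Ctbp2 is therefore uncertain, and the part of shared reads in it was not tested.

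Of 10 genes for cleavage of the receptor, 1 was higher and 2 were lower, near the shares of all tested genes (16.1% and 14.4%). Furin, which cuts the receptor during its maturation, was higher (log2 fold change 0.14, adjusted p 0.0119), and the metalloprotease Adam17 was lower (-0.14, 0.037). Adam17 shares 311 exonic bases with Iah1 on the opposite strand, which had 1374 counts against 5865. The γ-secretase subunit gene Aph1c was lower, with 47 and 43 counts in the controls and 19 and 23 with IL-12 (-1.09, SE 0.31, adjusted p 0.0105 from edgeR). Aph1c is a close copy of Aph1b, at 381 to 426 counts and a log2 fold change of 0.05, and reads may have been split between them. Adam10, Ncstn, Aph1a, Aph1b and Psenen did not pass.

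Among genes that modify the receptor or the ligand, Lfng, a glycosyltransferase that alters which ligands a Notch receptor responds to, was higher. It measured 69.8 and 71.7 CPM in the controls and 86.3 and 91.0 CPM in the IL-12 libraries (log2 fold change 0.32, SE 0.05, adjusted p 5.81e-05 from edgeR). The groups did not overlap. Of the ubiquitin ligases that drive ligand endocytosis, Mib1 was higher (0.13, 0.0256) and Mib2 was lower (-0.28, 0.00252).

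Receptor turnover genes were called lower in 3 of the 8 tested (14.4% of all tested genes) and called higher in 0 (16.1% of all). The other 5 did not pass, and 3 of the 8 fold changes were positive. Dtx4, a Deltex ubiquitin ligase, measured 40.9 and 40.4 CPM in the controls and 26.5 and 26.2 CPM with IL-12, and the pairs of libraries were far apart. It fell by 35.2%, with a log2 fold change of -0.63 (SE 0.07) and an adjusted p of 1.29e-06 from edgeR. Dtx3 (-0.31, 0.000206) and Numbl, a relative of the Notch inhibitor Numb (-0.20, 0.016), were lower as well.

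Of the 12 other receptors, ligands and HES or HEY genes in the list, 3 were abundant enough to test. Notch4 had 22 and 15 counts in the controls and 22 in each IL-12 library, with a log2 fold change of 0.25 (SE 0.38, adjusted p 0.682 from edgeR). Dll4 had at most 3 counts in any library and Hes5, a Notch target of neural progenitors, had 0 in all 4. The ligand-like gene Dlk2, singled out after its values were seen, had 263 and 275 counts in the controls and 255 and 176 in the IL-12 libraries, and its log2 fold change of -0.33 (SE 0.13, adjusted p 0.0615 from edgeR) did not pass. Both IL-12 libraries were below both controls, replicate 2 by more. Hes6, which opposes Hes1, was lower at 32.8 and 31.2 CPM with IL-12 against 35.4 and 37.8 CPM in the control libraries (-0.19, SE 0.07, adjusted p 0.0474).

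**Figure D4:**
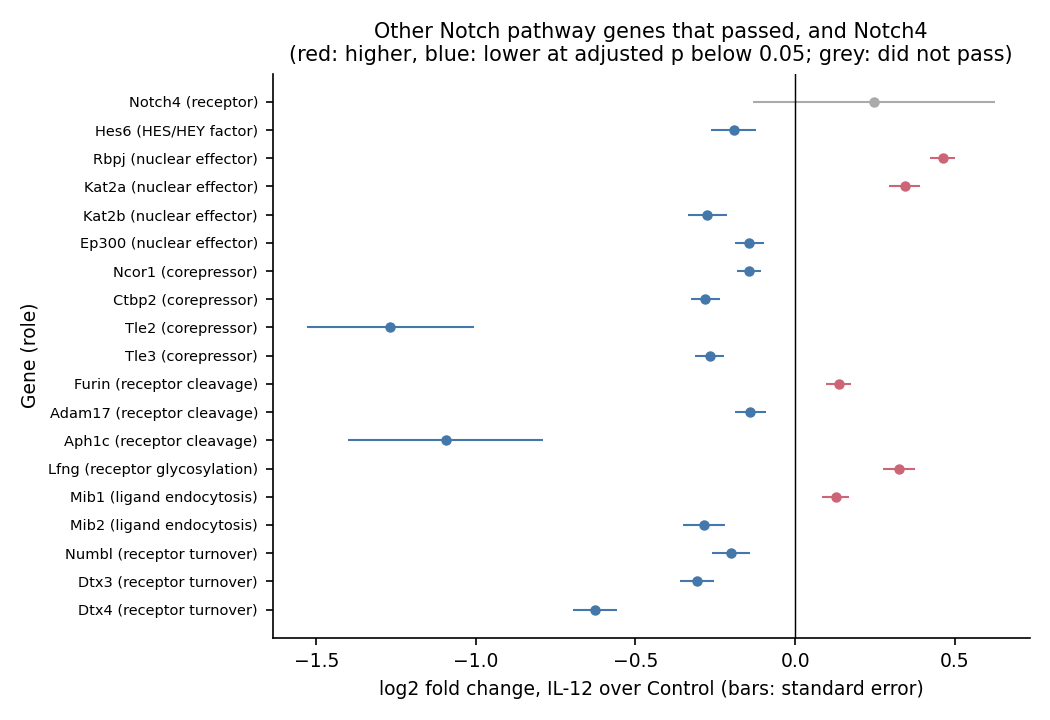
Log2 fold change with IL-12 over control, with its standard error as a bar, for the 18 genes of the wider Notch pathway list that passed an adjusted p below 0.05 and for Notch4, each labelled with its role. Red points were higher (5 genes), blue points were lower (13 genes), and the grey point, Notch4, did not pass. Tle2 and Aph1c lie furthest to the left, and Rbpj furthest to the right among the genes that passed.

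Beside the mesangial or pericyte markers given with Notch3, markers of tubular epithelium moved with the groups, and these 8 genes summed to 832 to 868 CPM in the controls and 641 to 679 CPM in the IL-12 libraries. This sum was almost entirely Lrp2 and Cdh16, both lower with IL-12, while Slc34a1 and Umod were at 0 counts. Within the podocyte list, Synpo, which encodes an actin-associated protein of foot processes, fell by 36.6%, and Podxl and Actn4 rose by 26.1% and 12.5%, with the list summing to 2850 to 2861 CPM in the control and 2806 to 2825 CPM in the IL-12 libraries. The 7 immune markers summed to 5.23 to 6.15 CPM and 5.06 to 7.30 CPM. The part of these markers in the Notch results was not tested.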

How the data were processed

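RNA from 2 control and 2 IL-12-treated MPC5 libraries was analyzed. The authors deposited raw counts per gene, with gene length, and FPKM values, which equal the deposited counts per kilobase, scaled to library size, times a constant per library (0.985 to 1.017). The submitters' processing notes name HISAT2, StringTie and mm9 without version or role, but 98.3% of 54532 genes have the coordinates of GENCODE M21 (GRCm38). Strand use in counting is not given in the sources used here. Genes were filtered by filterByExpr (minimum 10 counts, 15 in total), scaled by TMM and tested with edgeR 4.0.16 (quasi-likelihood, Benjamini-Hochberg) in R 4.3.3. The code was tested on simulated data. Alternatives used DESeq2 1.42.0, limma 3.58.1, other scalings and filters, FPKM, a replicate block and omission of each library. All 10 Notch genes were named, with called pathway genes, Rbpj, Notch4, Dll4 and Hes5. Other pathway genes and overlapping genes were named after their values were seen. Some listed genes are not reported here. Members and lists were chosen with earlier results of these data known. Figures were drawn with matplotlib 3.10.9 in Python 3.11.15. Depth was 18355379 to 20098012 counts per library, so counts near 3 show no difference.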

Additional observations from a re-analysis of the deposited data

How the results depend on the processing

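Notch1, Notch2, Notch3 and Hes1 passed in each of the 14 alternatives, with log2 fold changes of -0.33 to -0.27, -0.33 to -0.26, -0.69 to -0.45 and 0.43 to 0.64. Dll1 passed in 13, Jag2 in 7 and Jag1 in 2. DESeq2's Wald test called 2448 genes in place of 4297, 106 in place of 227 over 2-fold, 3 Notch genes lower in place of 5, and in the pathway list 11 in place of 18, with 1 over 2-fold. The limma fit of log2(FPKM + 1) called 38 genes over 2-fold and that of log2(FPKM + 0.1) called 141, and in the pathway list each called 11, with 0 over 2-fold. Leaving out each library in turn gave 2528 to 3722 genes called, 144 to 254 over 2-fold, and in the pathway list 11 to 14 called and 1 to 2 over 2-fold. The cause of these differences was not tested. The groups share replicate numbers 1 and 2, but same-numbered libraries did not deviate together (r = -0.03 over 14095 genes), and with a replicate block 2272 genes were higher and 2069 lower, with the same 5 Notch genes lower and Hes1 higher. With total counts alone 40.5% of calls were higher, against 52.8% with TMM. Hey1, Heyl and Nrarp are limited by depth.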
